A study of Mus musculus with 10 samples.

Results

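The cytosolic ribosome is built from a large and a small subunit, each made of ribosomal RNA and a set of ribosomal proteins. The genes of these proteins are named Rpl for the large and Rps for the small subunit. The members described here were all rows whose symbol was Rpl or Rps followed directly by a digit, together with Rplp0, Rplp1, Rplp2 and Rpsa. Pseudogene symbols containing -ps (6 rows) and the Rps6k kinases (10 rows), which phosphorylate proteins and are not part of the ribosome, were left out. This rule found 86 of the 21938 genes in the tables, 52 of the large and 34 of the small subunit. It took 77 core ribosomal proteins, 8 paralogues of core genes (Rpl3l, Rpl7l1, Rpl10l, Rpl22l1, Rpl36al, Rpl39l, Rps27l and Rps27rt) and Rps19bp1, which binds a ribosomal protein and is not one itself.

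Ribosomal proteins are needed in near-equal amounts, and their messenger RNAs are among the most abundant of any cell. These messenger RNAs start with a C and a run of pyrimidines, the 5' terminal oligopyrimidine or TOP motif, through which the growth-sensing kinase mTOR controls their translation. The same genes have left many processed pseudogenes in mammalian genomes, so short reads from them can match several places.

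The tables hold RNA sequencing of macrophages sorted from mammary tumours of C57BL/6 mice, 5 weeks after PyMT tumour cells, a mouse breast cancer line driven by the polyoma middle T antigen, had been injected into the mammary glands. In control (3 libraries) both the mice and the tumour cells were wild type. In Mertk KO (4 libraries) wild-type tumour cells grew in mice whose macrophages lack Mertk, a receptor for phosphatidylserine-coated dying cells. In Ptdss1 knockdown (3 libraries) the mice were wild type and the tumour cells had reduced Ptdss1, which makes phosphatidylserine, so these macrophages themselves were not targeted. The sources used here give neither the driver of the macrophage-specific deletion nor the number of knockdown lines. They leave unstated how many mice the libraries stand for, and p-values then describe the spread among libraries, which may be technical.

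Total counts ran from 10292592 to 25815071 reads. Ptdss1 knockdown 1 had 6995 genes with at least 10 reads and control 2 had 9066, against 9585 to 11523 in the other 8 libraries. All 14 macrophage marker genes were detected in every library. Mertk itself was at a log2 level of 9.64, 9.26 and 10.97 in the control libraries, and at 10.63, 9.72, 9.24 and 8.95 where it had been deleted. The groups overlapped, and a value for the whole gene does not check a deletion of some of its exons. A level here is the log2 of the reads per gene divided by a factor for the library's size, plus 1, as deposited.

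The members' start sites can be described before any value is read, though none of the motifs given here was found in most of them. Mouse RefSeq start windows (assembly GRCm38.p6) were matched for 66 of the 86 members. On the strand of the gene, C followed by 4 more pyrimidines within a stretch from 5 bases before to 10 bases after the start was present in 45.5% of them and in 21.2% of all 27025 genes with a window. The letters CTTTCC stood within 30 bases of the start, on the gene's strand, in 19.7% of members and 3.40% of genes. CCGGAAG, the core of ETS-family binding sites, was in 39.4% of members and 9.93% of genes over the whole 300 bases and both strands. TATAAA was in 10.6% of members and 15.7% of genes. A match describes letters only. The windows below run from 30 bases before the start to 20 from it on, for some of the members that the results return to. Runs of a C and at least 4 more pyrimidines are in capitals.
Rps18, chr17:33955646-33955695, minus strand: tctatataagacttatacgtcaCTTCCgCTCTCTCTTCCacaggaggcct
Rps27, chr3:90213629-90213678, minus strand: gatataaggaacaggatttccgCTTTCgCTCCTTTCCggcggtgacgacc
Rps27rt, chr9:114982720-114982769, minus strand: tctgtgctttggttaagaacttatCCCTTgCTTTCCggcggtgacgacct
Rpl35, chr2:39005112-39005161, minus strand: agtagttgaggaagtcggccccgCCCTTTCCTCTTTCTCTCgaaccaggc
Rpl22l1, chr3:28805478-28805527, plus strand: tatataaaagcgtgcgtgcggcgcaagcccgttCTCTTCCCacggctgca
Rpl7l1, chr17:46782637-46782686, minus strand: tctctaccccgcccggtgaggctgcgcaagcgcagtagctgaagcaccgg
The windows of Rps18, Rps27, Rps27rt, Rpl35 and Rpl22l1 carry such a run at or just after the start. That of Rpl7l1, a protein of ribosome assembly related to Rpl7, has none. Rpl22 and Rps27l, to which the results also return, are not printed. The windows of Rpl22 have no such run from 5 bases before to 10 bases after the start. Rps27l has a window with such a run there and another without.

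Ribosomal protein transcripts varied widely among the macrophage libraries. In their summed share of reads, no difference between the 3 groups was larger than the spread within them. The members took 2.97%, 1.94% and 6.96% of all reads in control 1, 2 and 3. In Mertk KO they took 4.04%, 3.89%, 2.19% and 1.85%. In Ptdss1 knockdown they took 0.976%, 4.97% and 2.82%. Control 3 was the highest of the 10 libraries and Ptdss1 knockdown 1 the lowest, and the 3 groups overlapped. Exact 95% intervals were at most 0.0241 percentage points wide and cover counting error only, since reads copied by PCR are not independent molecules. The group means were 3.96 ± 2.65% (SD, n = 3) in control, 2.99 ± 1.13% (SD, n = 4) in Mertk KO and 2.92 ± 2.00% (SD, n = 3) in Ptdss1 knockdown. Without control 3 the control mean was 2.46%, and without Ptdss1 knockdown 1 that of the knockdown was 3.90%, so the order of the groups turned on these libraries. In such bulk samples a lower share of cells rich in these transcripts and less transcript per cell cannot be told apart.

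**Figure D1:**
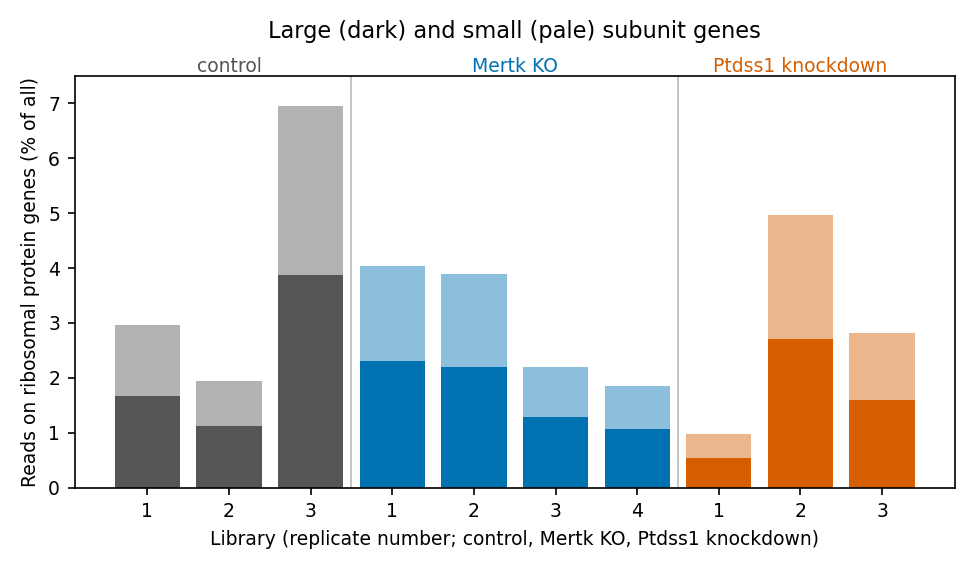
Percent of all reads in each library that fell on the 52 large-subunit (dark) and 34 small-subunit (pale) ribosomal protein genes, by group and replicate number. Control 3 stands highest at 6.96% and Ptdss1 knockdown 1 lowest at 0.976%.

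Both subunits moved together. Reads on large-subunit genes were between 1.20 and 1.41 times those on small-subunit genes in every library, while the total share ranged from 0.976% to 6.96%. The ratio was 1.31 ± 0.05 in control (SD, n = 3), 1.36 ± 0.05 in Mertk KO (SD, n = 4) and 1.26 ± 0.06 in Ptdss1 knockdown (SD, n = 3).

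Of the 86 members, 84 had at least 10 reads in at least 3 libraries and were tested, and 83 had that many in all 10. Rpl10l, a paralogue of Rpl10 known from testis, had 0 reads in every library, which allows at most between 0.116 and 0.291 reads in each 1000000. Rpl39l, the testis-linked paralogue of Rpl39, had 3 and 20 reads in Mertk KO 1 and 2, 44 in Ptdss1 knockdown 2 and 0 in the other 7.

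Single members followed the whole. The median level of the 84 was 12.06, 11.28 and 13.49 in control, 12.52, 12.54, 11.52 and 11.44 in Mertk KO, and 10.73, 12.85 and 11.98 in Ptdss1 knockdown. Of the 84, 78 had their highest level in control 3 and 64 their lowest in Ptdss1 knockdown 1. For the 77 core genes these numbers were 75 and 61. Among the 3800 other tested genes of the same mean level (9.04 to 13.70), 11.3% were highest in control 3 and 22.3% lowest in Ptdss1 knockdown 1. The median SD over the 10 libraries was 0.90 for members and 0.70 for those other genes. Once each library's own median over the members was taken off, the members' median SD was 0.29.

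**Figure D2:**
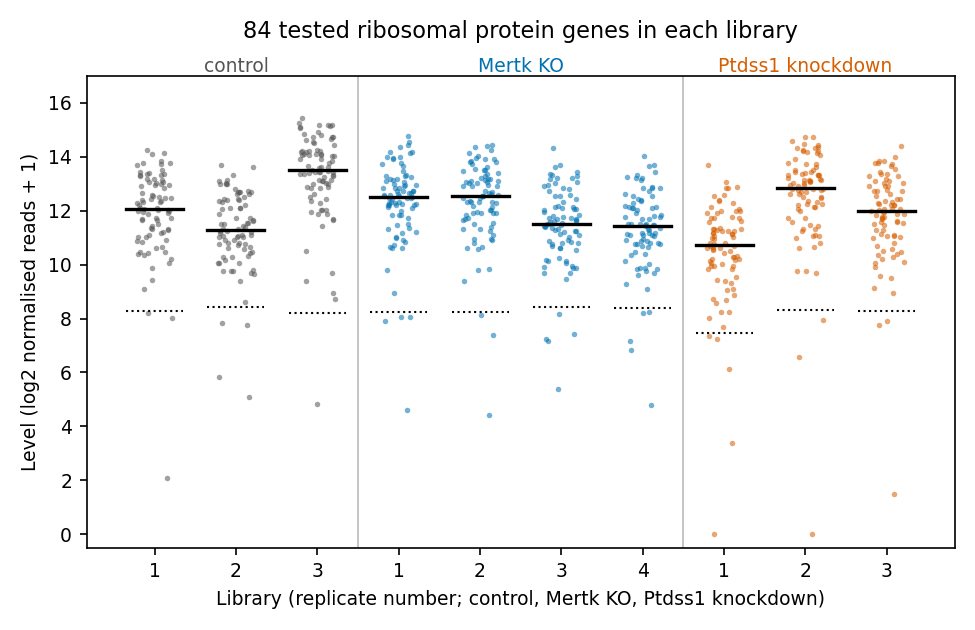
Level (log2 normalised reads + 1) of the 84 tested ribosomal protein genes in each library, 1 point a gene, with their median as a solid line and the median of all 11564 tested genes as a dotted line. The members shift up and down together, from a median of 13.49 in control 3 to 10.73 in Ptdss1 knockdown 1.

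The most abundant members per kilobase of transcript in control were Rpl41, a very small protein of the large subunit, at 42358 mean normalised reads, then Rplp1 at 34632, Rpl32 at 34396, Rplp2 at 31991 and Rps9 at 30866. The lowest tested were Rpl3l at 21.2, Rpl5 at 128, Rpl12 at 432, Rps19bp1 at 688 and Rpl7l1 at 851. Among these, Rpl5 and Rpl12 are core proteins of every ribosome. They have 6 and 9 near-copies in the annotation, none of them in the tables, and the abundant Rpl32 has 8, also none in the tables. How the submitters' software treated reads that match several places is not given in the sources used here.

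Against control, no ribosomal protein gene passed the threshold in macrophages lacking Mertk. In limma, 0 of 84 members passed an adjusted p of 0.05, as did 2 of 11564 genes tested (0.0173%), the secreted proteins Spp1 and Fn1, which are no members and are named after their values were seen. At an unadjusted p below 0.05 there was 1 member, 1.19% of those tested against 2.06% of all genes. limma-voom on the recovered reads also called 0 members and 2 genes. The members' fold changes were negative for 79 and positive for 5, with a median of -0.32 on the log2 scale beside 0.02 over all genes, and a median SE of 0.59. Without control 3 the median was 0.29 and 13 were negative, so the direction rested on that library. The median was -0.79 without control 2 and lay between -0.49 and -0.13 when any 1 Mertk KO library was left out.

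Rps2, a small-subunit protein near the messenger RNA entry, had the smallest p. It has 47 near-copies in the annotation, none of them in the tables. Its levels were 13.49, 12.98 and 14.11 in control, 12.21, 12.46, 12.31 and 12.40 in Mertk KO and 12.34, 13.49 and 13.56 in Ptdss1 knockdown. The 4 Mertk KO libraries lay below all controls, and close together. The fold change was -1.18 (SE 0.41, limma unadjusted p = 0.0105, adjusted p = 1.0), and between -1.45 and -0.89 when any 1 library was left out. Rpl12, at the base of the stalk, was the other member whose groups did not overlap, at 8.22, 9.80 and 8.73 in control against 8.05, 8.13, 7.26 and 6.82 in Mertk KO. These 2 of 84 members with Mertk KO entirely lower stand beside 2.62% of all genes, and 0 members were entirely higher beside 3.00%.

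The next members by p were Rps18, with a fold change of -1.06 (SE 0.57), and Rpl6, with -0.71 (SE 0.49). Both had a limma adjusted p of 1.0, and without control 3 they were at -0.41 and -0.32. The 3 positive members of smallest p, Rpl3l, Rps27l and Rpl8, had fold changes below their SE.

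For Rps18, reads in the Mertk KO libraries were also counted on near-copies. Rps18, a small-subunit protein of the head of the subunit, has 13 near-copies in the annotation (at least 90% identical over at least 80% of the coding sequence), of which Gm10260 and Gm11361 are in the tables as genes of their own. These gene models were looked up after their values were seen. Rps18 lies at chr17:33951999-33956001 on the minus strand, Gm10260 at chr13:97760072-97760632 on the minus strand and Gm11361 at chr13:28257528-28258134 on the plus strand (GRCm38). All 3 have 456 coding bases. Counted from 1 at the A of the start codon, with the Rps18 base first, Gm10260 differs by T186C, A337C, G371A and G431A and Gm11361 by T11A, A171C and A337C. The reference stretches around 4 of the 6 differing positions are shown (171, 186, 337 and 431, in capitals), because a read that covers no differing position matches the copy as well as Rps18.
Rps18, coding bases 157 to 201: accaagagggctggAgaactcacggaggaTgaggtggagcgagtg
Gm10260, coding bases 157 to 201: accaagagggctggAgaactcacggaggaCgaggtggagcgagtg
Gm11361, coding bases 157 to 201: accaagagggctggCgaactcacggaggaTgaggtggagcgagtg
Rps18, coding bases 323 to 352: gtgaggacctggagAggctgaagaaaattc
Gm10260, coding bases 323 to 352: gtgaggacctggagCggctgaagaaaattc
Gm11361, coding bases 323 to 352: gtgaggacctggagCggctgaagaaaattc
Rps18, coding bases 417 to 446: tggccgcaggggccGaactgtgggtgtatc
Gm10260, coding bases 417 to 446: tggccgcaggggccAaactgtgggtgtatc
Gm11361, coding bases 417 to 446: tggccgcaggggccGaactgtgggtgtatc
Of the 382 windows of 75 bases, the read length, in the coding sequence, 51.0% hold a position where Gm10260 differs from Rps18 and 42.1% one where Gm11361 does. The C of A337C is shared by both copies.

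In Mertk KO, Gm10260 was counted at 1356, 2437, 2210 and 1558 reads. It had 35, 3 and 65 reads in control and 30, 91 and 50 in Ptdss1 knockdown. Rps18 had 4660, 8000, 5410 and 4328 reads in Mertk KO, 11099, 4899 and 35520 in control and 3528, 16441 and 14284 in Ptdss1 knockdown. Gm10260 therefore held 22.5%, 23.3%, 29.0% and 26.5% of the reads on the pair in Mertk KO, with exact 95% intervals of at most 2.27 percentage points. It held 0.314%, 0.0612% and 0.183% in control and 0.843%, 0.550% and 0.349% in Ptdss1 knockdown. Every Mertk KO library stood apart from all 6 others. Of the 20 near-copies in the tables that are not members, Gm10260 and Gm11361 were the ones whose share of the pair in Mertk KO did not overlap the other groups. Gm11361 held 1.79%, 1.22%, 1.06% and 0.825% of the reads on it and Rps18 in Mertk KO and between 0.113% and 0.406% in the other libraries.

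Over all genes, Gm10260 had a log2 fold change of 6.58 in Mertk KO against control (SE 1.29, unadjusted p = 7.7e-05, limma adjusted p = 0.296). It passed the threshold in 5 of 23 alternative fits, with fold changes from 5.51 to 7.29 and adjusted p from 2.8e-05 to 1.0. One of the 5 left out Ptdss1 knockdown 1 alone (adjusted p = 0.0233). Against Mertk KO, Gm10260 in the knockdown was at -5.36 (SE 1.29, limma adjusted p = 0.805). That comparison passed in 2 of 23 alternative fits, with library quality weights and without control 2 and Ptdss1 knockdown 1 together, and limma adjusted p ran from 1.5e-05 to 0.985. Gm11361, at lower counts, had fold changes below their SE in both comparisons with control. In the knockdown against Mertk KO it was at -1.84 (SE 1.70, limma adjusted p = 0.810). Summing Rps18 with Gm10260 gave levels of 13.11, 13.06, 12.59 and 12.20 in Mertk KO (mean 12.74 ± 0.43, SD, n = 4) and 13.15, 12.32 and 14.67 in control (mean 13.38 ± 1.19, SD, n = 3). The groups overlapped for the sum as they did for Rps18 alone. With both copies added the fitted fold change was -0.63 in place of -1.06. It rested on control 3, since without that library the control mean of Rps18 summed with Gm10260 was 12.73, beside 12.74 in Mertk KO. Why the copies were counted in these libraries was not tested.

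**Figure D3:**
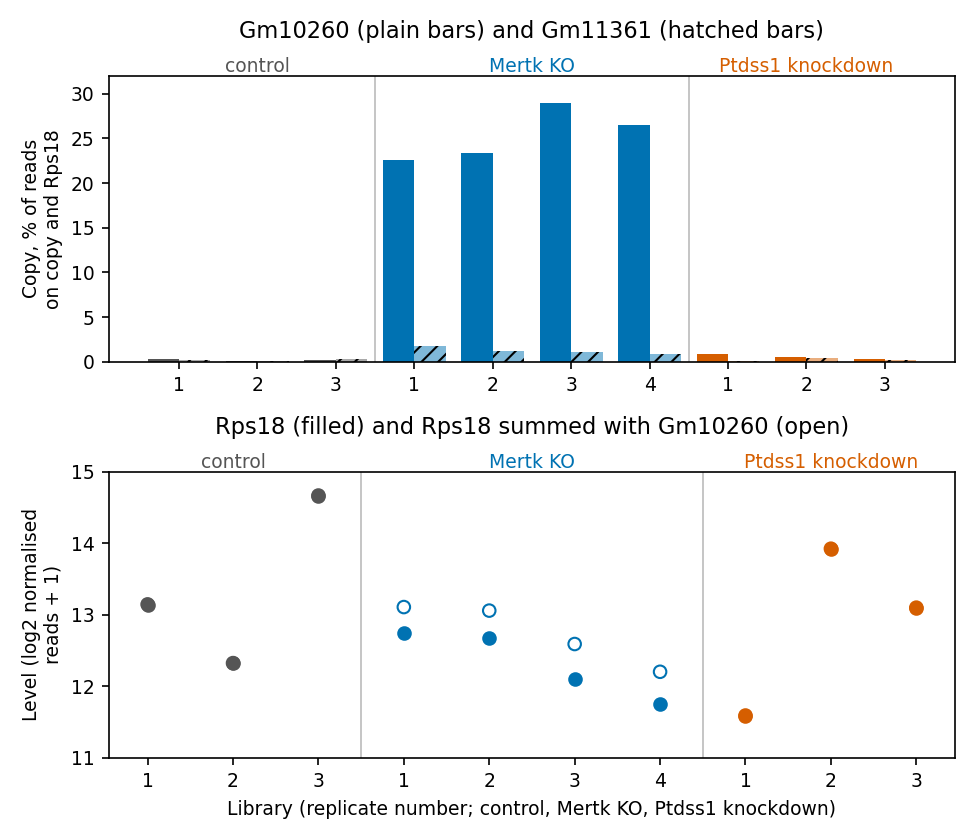
Top: reads on Gm10260 and on Gm11361 as a percent of the reads on each copy and Rps18 together, by library. Bottom: level (log2 normalised reads + 1) of Rps18 alone (filled) and summed with Gm10260 (open; hidden behind the filled point where they coincide). Gm10260 holds 22.5% to 29.0% in the 4 Mertk KO libraries and below 1% in the other 6.

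Other near-copies took a large share of reads in every group. They include Rpl10-ps3, identical in coding sequence to Rpl10, with 31.0% to 81.6% of the pair, and Gm2000 with 39.6% to 45.4% of the pair with Rpl35. BC004004 had 13.1% to 45.1% beside Rpl21, Rps12-ps3 24.3% to 62.6% beside Rps12 and Rpl9-ps6 6.29% to 12.9% beside Rpl9. In all, 80 of 86 members had a near-copy, with a median of 9 copies and at most 77, for Rpl21. Levels of single members are therefore uncertain where reads could have been split, more so than the sum over members. With the near-copies in the tables added, the members' share was 4.06%, 3.08% and 2.98% of reads as means of control, Mertk KO and Ptdss1 knockdown. The genes Gins1, Wdr89 and RPS10-NUDT3, which also met the rule for a near-copy, were not added.

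Macrophages from tumours with the Ptdss1 knockdown also showed no ribosomal protein gene past the threshold against control. limma called 0 of 84 members and 0 of 11564 genes (0%), and limma-voom called 0 of each. One member had an unadjusted p below 0.05, as did 335 genes, or 1.19% against 2.90%. Fold changes were negative for 78 members and positive for 6, with a median of -0.59 beside -0.05 over all genes and a median SE of 0.63. The median was 0.05 without control 3 and 0.02 without Ptdss1 knockdown 1. With both of these left out together, an alternative added after seeing the data, it was 0.62 and 3 members were negative. It was -1.08 without control 2 and -1.13 without Ptdss1 knockdown 2.

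Rpl3l, the muscle paralogue of Rpl3, had the smallest p here. It had 4, 54 and 38 reads in control, 0, 0 and 3 in Ptdss1 knockdown and 16, 25, 50 and 33 in Mertk KO. The knockdown libraries lay below all others, at counts near the limit of detection. The fitted fold change was -3.76 against control (SE 1.73, limma adjusted p = 0.841) and -1.79 with a pseudocount of 8. Rpl27a followed at -1.46 (SE 0.77, limma adjusted p = 0.841) and Rpl12 at -2.51 (SE 1.36, limma adjusted p = 0.841). Rpl27a was at -0.47 without Ptdss1 knockdown 1. Rpl12 had 365, 850 and 579 reads in control and 11, 258 and 389 in the knockdown, and its fold change was -1.0 without Ptdss1 knockdown 1. Of the 3 positive members of smallest p, Rpl7l1 was at 0.65 (SE 0.64, limma adjusted p = 0.843) and Rpl8 and Rps13 were below their SE. The knockdown lay entirely below control in 2 of 84 members, Rpl12 and Rpl3l, beside 3.60% of all genes, and entirely above in 0 beside 3.32%.

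The knockdown against Mertk KO gave 0 of 84 members and 0 of 11564 genes (0%) in limma and 0 of each in limma-voom. One member and 431 genes had an unadjusted p below 0.05, or 1.19% and 3.73%. Fold changes were negative for 64 members and positive for 20, with a median of -0.24 beside -0.11 over all genes. The median was 0.33, with 4 members negative, without Ptdss1 knockdown 1, and -0.73 without Ptdss1 knockdown 2. It was -0.07 and -0.06 without Mertk KO 1 and 2, and -0.40 without Mertk KO 4. Both comparisons with control share its 3 libraries, and this one shares libraries with each of them.

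Rpl3l had the smallest p at -4.30 (SE 1.62, limma unadjusted p = 0.0160, adjusted p = 0.805), which was -2.03 with a pseudocount of 8. Rpl27a had a fold change of -1.22 (SE 0.72) and Rpl22l1 of -0.78 (SE 0.66), which were -0.23 and 0.047 without Ptdss1 knockdown 1. The positive members of smallest p were Rps2 at 0.79 (SE 0.41), Rpl7l1 at 0.86 (SE 0.60) and Rps19bp1, whose fold change was below its SE. The 4 with a value had a limma adjusted p of 0.805. Rps2 was the single member called in any of the 26 fits run, at 1.17 with library quality weights (adjusted p = 0.0395, between 0.0395 and 1.0 over its 24 alternatives). Rpl10 was entirely higher in the knockdown, with levels of 10.95, 11.26 and 11.48 against 10.73, 10.93, 10.86 and 10.89, beside 2.32% of all genes, and Rpl3l entirely lower, beside 2.91%. Rpl10 shares its reads with Rpl10-ps3, and the groups overlapped for the sum of the pair. Its levels were 11.48, 13.12 and 12.45 in the knockdown (mean 12.35) and 13.13, 13.37, 12.18 and 12.08 in Mertk KO (mean 12.69).

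**Figure D4:**
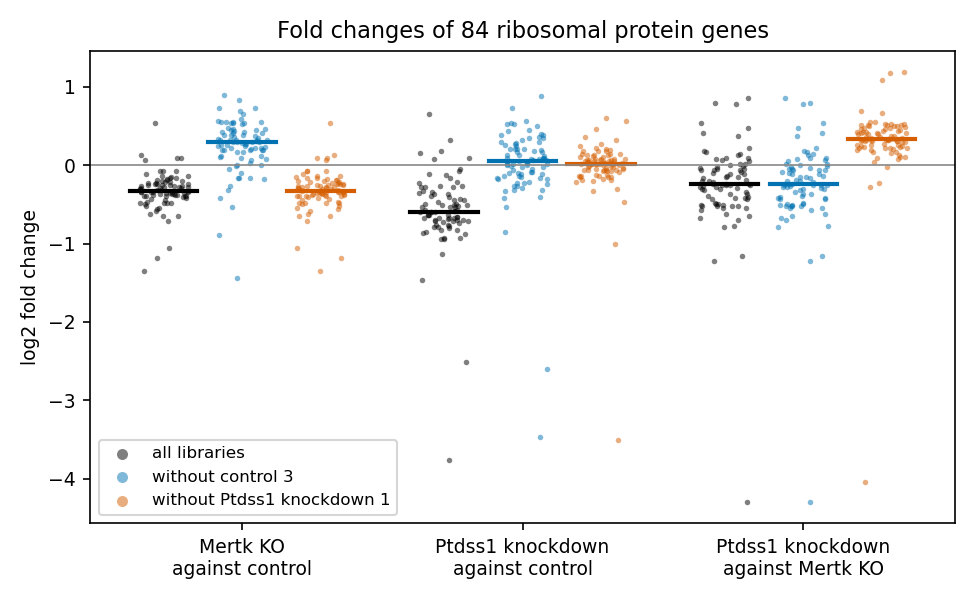
log2 fold changes of the 84 tested ribosomal protein genes, 1 point a gene with the median as a line, in the 3 comparisons with all libraries (black), without control 3 (blue) and without Ptdss1 knockdown 1 (orange). The median moves from -0.32 to 0.29 in the first comparison without control 3 and from -0.24 to 0.33 in the last without Ptdss1 knockdown 1.

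By role in the ribosome, calls cannot tell the groups of members apart, since 0 of 84 members were called in each comparison. The stalk proteins Rplp0, Rplp1 and Rplp2 recruit the elongation factors. Their summed normalised reads were 37610, 24379 and 93352 in control, 52613, 46325, 33707 and 27986 in Mertk KO and 19596, 60749 and 35892 in Ptdss1 knockdown. Within the stalk the members were unequal. Rplp0 kept levels between 13.62 and 14.93, while Rplp2 ranged from 11.17 to 14.74. Rplp0 is also widely used as a reference gene in PCR, and its SD over the 10 libraries was 0.39 against 0.95 for Rplp1 and 1.08 for Rplp2.

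Rpl5 and Rpl11 form a particle with 5S ribosomal RNA that also binds the p53 regulator Mdm2. Rpl11 had levels of 10.89, 9.75 and 11.94 in control, 10.61, 10.90, 9.91 and 9.68 in Mertk KO and 9.43, 11.08 and 10.50 in Ptdss1 knockdown. Rpl17, Rpl19, Rpl23a, Rpl26, Rpl31, Rpl35 and Rpl39 are 7 proteins at the rim of the tunnel through which the new peptide leaves. They had 7 of 7 negative fold changes in all 3 comparisons, with medians of -0.36, -0.67 and -0.31. Of all 84 members, 79, 78 and 64 were negative, a direction that rested on control 3 or Ptdss1 knockdown 1, as given above. The 9 genes mutated in Diamond-Blackfan anaemia, an inherited failure of red cell production, had medians of -0.36, -0.53 and -0.24. Rps27a, made as a fusion with ubiquitin, had an SD of 0.14 once each library's median over the members was taken off. The 4 X-linked core genes Rpl10, Rpl36a, Rpl39 and Rps4x had medians of -0.46, -0.55 and -0.16. These values lie near those of all members, and the order of comparisons is Mertk KO against control, Ptdss1 knockdown against control and Ptdss1 knockdown against Mertk KO.

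The members of largest SD over the 10 libraries were Rpl3l (2.23), Rpl12 (1.68), Rpl27a (1.25), Rps28 (1.20) and Rps21 (1.19). The smallest were Rplp0 (0.39), Rpl4 (0.41), Rpl10 (0.43), Rpl15 (0.58) and Rps3 (0.59). The value for Rpl10 holds for the reads assigned to it, which ran from a level of 10.60 to 12.03. Summed with its identical copy Rpl10-ps3, the level ran from 11.48 in Ptdss1 knockdown 1 to 14.33 in control 3. The steadiest 5 have transcripts of 799 to 1908 bases. Among the most variable, the transcripts of Rps28 and Rps21 have 271 and 394 bases, but those of Rpl3l, Rpl12 and Rpl27a have 1375, 1242 and 1158. In coding length Rpl12 and Rpl27a are short, at 495 and 444 bases, and Rpl3l is long, at 1221. Across the 77 core genes, coding length had a Spearman rho of -0.58 with the SD and of -0.66 with the gap between control 3 and the mean of the other controls. With transcript length in place of coding length the rho with that gap was -0.44. These points share libraries and are given as a description. By transcript, the 19 tested members under 500 bases were higher in control 3 by a median of 2.08, the 46 of 500 bases or more but under 1000 by 1.79 and the 19 of 1000 bases or more by 1.58. Ptdss1 knockdown 1 lay below the other knockdown libraries by medians of 1.83, 1.70 and 1.54 in the same order. Their median SD over the 10 libraries was 1.01, 0.84 and 0.84.

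**Figure D5:**
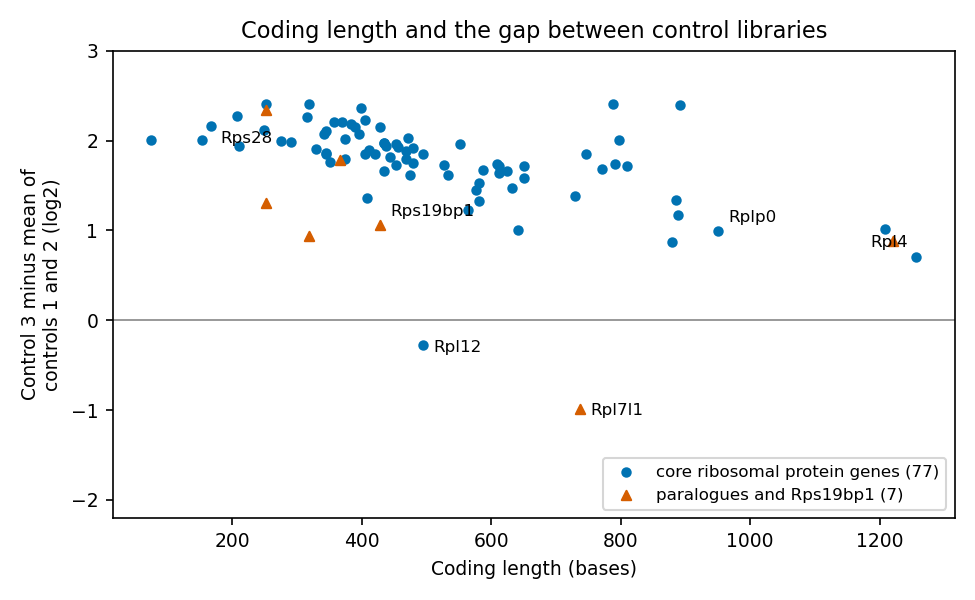
Gap in log2 level between control 3 and the mean of controls 1 and 2, against coding length in bases, for the 77 core genes (circles) and the 7 tested paralogues and Rps19bp1 (triangles). Most short genes lie near 2, Rpl4 is at 0.70, and Rpl12 (-0.28) and Rpl7l1 (-0.98) lie below 0.

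The paralogues did not all follow their core partners. Rpl7l1 had levels of 10.47, 10.30 and 9.40 in control, 8.93, 9.81, 9.87 and 10.76 in Mertk KO and 11.98, 9.68 and 10.46 in Ptdss1 knockdown. It was highest where the other members were lowest, in Ptdss1 knockdown 1, and its share of reads per kilobase on it and Rpl7 was 58.9% there against 2.48% to 17.5% in the other 9 libraries. Rps27l, a target of p53, held between 29.4% and 63.9% of the reads per kilobase on it and Rps27. Rpl22l1 held between 16.3% and 45.9% beside Rpl22, and Rpl36al between 74.1% and 91.7% beside Rpl36a, so the paralogue was the larger of that pair in every library. Rps27rt, whose coding sequence is identical to that of Rps27 and whose start window is printed above, held 31.6% to 42.8% of the reads on the pair. In none of these 5 pairs did the share separate the groups.

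Fau and Rack1 are ribosomal proteins whose symbols lie outside the rule. Fau is made as a fusion with a ubiquitin-like protein and gives Rps30, and Rack1 is a scaffold on the small subunit. Fau had levels of 12.64, 11.94 and 14.11 in control, 13.14, 13.19, 11.93 and 11.92 in Mertk KO and 10.62, 13.28 and 12.35 in Ptdss1 knockdown. Rack1, like Fau, was highest in control 3 and lowest in Ptdss1 knockdown 1. The fold change of Rack1 was -0.63 (SE 0.53) in Mertk KO against control and -0.73 (SE 0.57) in the knockdown against control, and that of Fau in the latter was -0.81 (SE 0.65). The other 3 values of these genes were below their SE. None passed in limma, with adjusted p of at least 0.841.

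The lists of factors that work with the ribosome did not share 1 direction in Ptdss1 knockdown 1, where most members were lowest. No gene of any of these lists was called in any comparison. The 9 elongation factor genes had 4 positive and 5 negative fold changes in Mertk KO against control, 5 and 4 in the knockdown against control, and 4 and 5 between the perturbations, with medians of -0.14, 0.49 and -0.04. The 29 initiation factor genes had 11, 17 and 20 positive, with medians of -0.08, 0.26 and 0.15. The 40 ribosome assembly genes had 24, 30 and 29 positive, with medians of 0.07, 0.32 and 0.34. For the 17 genes that control ribosomal protein synthesis, such as those of mTOR signalling, 9, 10 and 10 were positive, with medians of 0.11, 0.14 and 0.26. For the 8 quality control genes with values, 7, 7 and 3 were positive, with medians of 0.47, 0.70 and -0.07.

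In Ptdss1 knockdown 1 the summed reads of these lists and the mean level over their tested genes gave different pictures. The mean level of the elongation factors there was 12.30, above the 11.32 to 12.20 of the other libraries, and that of the synthesis control genes was 8.74, below the 8.95 to 9.17 elsewhere. Initiation factors (11.10), assembly genes (8.69) and quality control genes (7.85) lay within the range of the other libraries. The summed normalised reads were highest there for all of these lists but the elongation factors, and those of assembly were 55462 against 26608 to 38727 elsewhere. That sum was high through single genes, such as Nop2, Polr1b and Nob1 with 4215, 4186 and 3343 reads. Others were nearly absent from the same library, as Rrp12 and Utp4 had 0 reads, Bysl 1, Tsr1 4, Dkc1 7 and Ddx21 24. Of the initiation factors, Eif3e, a subunit of the complex that recruits the small subunit, had 28 reads (level 4.66, against 10.03 to 12.11 elsewhere) and the cap-binding Eif4e had 34. Pabpc1, Tpt1 and Eef1b2, which belong to these lists, were also at their lowest there. The genes of this paragraph were chosen after their values were seen.

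Among the assembly genes, Rrp9, a protein of the small nucleolar particle that processes ribosomal RNA, had levels of 5.75, 3.23 and 5.49 in control, 7.56, 7.24, 7.48 and 7.14 in Mertk KO and 10.09, 7.53 and 8.68 in Ptdss1 knockdown. The fold change in the knockdown against control was 3.95 (SE 1.40, limma adjusted p = 0.841). Nop16 had 1.57 (SE 0.65, limma adjusted p = 0.841) in that comparison. Nop56, a core protein of box C/D particles, had 1.36 (SE 0.57, limma adjusted p = 0.805) in the knockdown against Mertk KO, and Myc, a transcription factor that drives ribosome production, 1.91 (SE 0.91, limma adjusted p = 0.805). Myc was at 1.16 without Mertk KO 1. Each had an unadjusted p below 0.05 and none passed the threshold.

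Markers of other cells moved between the same libraries. The 9 T cell genes in the tables summed to 404, 901 and 2091 normalised reads in control, 2132, 1285, 542 and 727 in Mertk KO and 34, 1463 and 1093 in Ptdss1 knockdown, with 0 to 7 of the 9 at 0 reads in a library. The 11 genes of dividing cells summed to 11484, 6124 and 4639 in control, 2802, 4414, 3515 and 3019 in Mertk KO and 1706, 10194 and 5875 in Ptdss1 knockdown, with 0 to 6 of the 11 at 0. The 14 macrophage genes summed to between 712076 and 1622680, with none at 0. By sums, Ptdss1 knockdown 1 was lowest in these 3 lists and in those of B cells, epithelial or tumour cells and fibroblasts, 6 of the 11 cell lists. It was highest in the neutrophil list (5562 against 613 to 1511 elsewhere) and the endothelial list (1935 against 592 to 1348), and within the range of the others for NK, dendritic and erythroid cells. In that library 7 of the 9 neutrophil genes and 4 of the 7 endothelial genes had 0 reads. By mean level over tested genes it was lowest in 5 lists and within the range of the others in 5. The latter include neutrophils (4.15), endothelial cells (5.65) and T cells (1.75). The part of these cells, and of the number of genes detected per library, in the members' levels was not tested.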

How the data were processed

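STAR, RSEM and mm10 are named in the submitters' processing notes, without role or version. Libraries were made from sorted macrophages with a SMART-Seq v4 kit and 16 PCR cycles, per the labels' protocols, and carry neither molecular identifiers nor strand. The authors deposited 1 table of log2 values per library. As the values show, 1 is added to each gene's reads divided by a library factor before the log2 is taken. Whole reads came back from 100% of values within a tolerance of 0.01, and library totals, shares and counts use them. Fold changes come from limma 3.58.1 in R 4.3.3 on the deposited log2 values, with a trended prior variance and robust moderation, over all 10 libraries without covariates and with a two-sided test. Genes needed at least 10 reads in at least 3 libraries (11564 genes), and p-values were adjusted by Benjamini-Hochberg over all of them at 0.05. A fold change on this scale understates that of low genes. The fit was also run on simulated reads, whose spread was a fixed setting and not that of these libraries. That run therefore does not show how well the fit finds changes here. Near-copies were searched with BLAST 2.17.0 in GENCODE M21. Levels per kilobase use 1 coding transcript per gene.

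Members named are those of smallest p in each direction, those highest and lowest per kilobase, those of largest and smallest SD, the role lists and the members left out by the filter, with fold changes printed where they exceed their SE. Of the other translation genes, those with an unadjusted p below 0.05 among the leading 2 per list and comparison are named. The members and lists were chosen with earlier results of these data known. Some genes of the lists are not reported here.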

Additional observations from a re-analysis of the deposited data

How the results depend on the processing

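No paired analysis was possible because the replicate numbers were given in accession order and only name the libraries. The count of called members was 0 in every comparison and alternative but one, since 1 member, Rps2, passed in Ptdss1 knockdown against Mertk KO with library quality weights. The members' median fold change stayed negative under the 11 alternatives that leave out no replicate, between -0.39 and -0.19 in Mertk KO against control, -0.81 and -0.38 in Ptdss1 knockdown against control and -0.46 and -0.22 between the perturbations, with upper-quartile scaling, under which the median of all genes shifted by -0.54 in Ptdss1 knockdown 1 and by 0.40 in control 3, giving the lowest of the last 2 ranges. Some of these 11 could not change a fold change, namely the fit without robust moderation and that on only the compared groups. The other filters change only which members enter the median. Leaving out libraries changed the sign of the median, as given above, and without control 3 and Ptdss1 knockdown 1 together the knockdown against control was at 0.62. With the 100 other genes of most reads taken out of the total, the mean share was 6.42% in control (3.94% without control 3), 4.76% in Mertk KO and 4.53% in Ptdss1 knockdown (6.15% without Ptdss1 knockdown 1). The fold changes that changed sign without control 3 and Ptdss1 knockdown 1 together were those in the knockdown against control of Fau (0.53), Rack1 (0.36), Rpl27a (0.13) and Rpl7l1 (-0.31), and of Rpl22l1 (0.047) against Mertk KO. Rpl22l1 was also at 0.047 without control 2 and Ptdss1 knockdown 1 together, and between -1.27 and 0.047 when any 1 library was left out. The other 17 of 22 printed fold changes of single genes kept their sign in all alternatives run. Some alternatives could not change it, such as leaving out a library of a group that is not compared. The cause of the changes of sign was not tested. Counts limited Rpl3l, Rpl10l and Rpl39l, and the comparisons of all other members rest on 3 or 4 libraries a group.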
